A study of Homo sapiens with 6 samples.

Results

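The 32 genes described here encode proteins of the Fanconi anaemia pathway and of homologous recombination, and were taken by symbol from a deposited table of 26364 genes; all 32 were found and all 32 passed the filter on low values, among 13297 genes tested. RNA was sequenced from MV4-11, a human acute myeloid leukaemia cell line that carries an internal tandem duplication of the receptor kinase gene FLT3, in 3 libraries from cells given DMSO and 3 from cells given 22d, a compound known as an inhibitor of the deacetylase HDAC8. The labels state a concentration of 10 nM and an exposure of 18 hours, and both groups were grown in the same medium with serum. All libraries come from this 1 cell line, and the labels do not say whether libraries of a group came from separate cultures, so a p-value here reflects the scatter among these 6 libraries, part or all of which may be technical. The comparison asks which transcripts of these genes differ between cells with 22d and cells with vehicle.

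The Fanconi anaemia pathway repairs DNA whose strands are linked to each other. A core complex with the ligase FANCL and the conjugating enzyme UBE2T attaches ubiquitin to FANCD2 and FANCI, which opens the way for nucleases and for repair of the resulting break by homologous recombination. In recombination, the break ends are resected, BRCA1, PALB2 and BRCA2 prepare the single strand for pairing, XRCC2, XRCC3 and the RAD54 proteins help strand invasion, and the BLM complex or structure-selective nucleases resolve the joined molecules. Most of this work is done in S and G2 phase, on a replicated sister chromatid, and many of the genes are known to be transcribed with the cell cycle in dividing cells.

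With 22d, 27 of the 32 genes fell, 0 rose and 5 did not pass the test (limma-trend on log2 of the normalized count + 1, with an adjusted p under 0.05, by Benjamini and Hochberg's method across every gene tested). Among all genes tested, 29.6% fell and 28.5% rose by the same rule. That even split holds for the deposited scaling: 49.0% of calls were higher with it, and 65.7% with scaling by library totals, where 24 members were lower. At an unadjusted p under 0.05 the members numbered 28 lower and 0 higher, and edgeR and DESeq2 on whole reads also gave 0 higher. The median log2 fold change was -1.37 over the members and 0.01 over all genes tested. Of the members, 19 fell at least 2-fold, against 9.87% of all genes tested. In 28 members all 3 libraries with 22d lay under all 3 DMSO libraries, a pattern that 33.3% of all genes tested had. The members held between 12 and 4600 reads per library, and 5 of them held under 100 reads in at least 1 library.

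**Figure D1:**
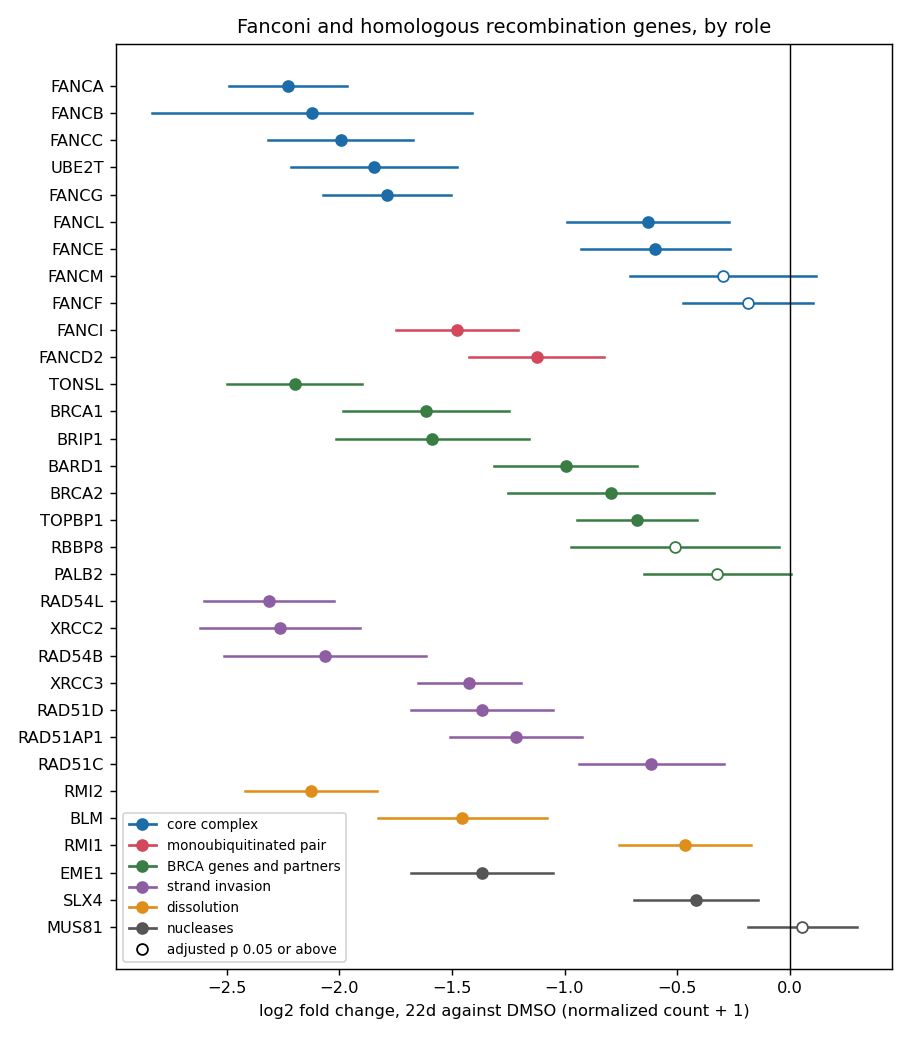
Log2 fold change of each of the 32 genes, 22d against DMSO (3 libraries each), with its 95% confidence interval from limma-trend, grouped and coloured by role; open circles mark genes with an adjusted p of 0.05 or above. RAD54L stood lowest at -2.31, and MUS81 was the only gene above 0, at 0.06; scaled by library totals, FANCF also lay above 0.

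Whole libraries differed little in depth, but the size factors of the deposited scaling differed between groups. These were 0.879, 0.967 and 0.912 in DMSO libraries 1 to 3 and 1.02, 1.10 and 1.19 in 22d libraries 1 to 3. The recovered totals ran from 19995430 to 23749257 reads, and libraries of the same group correlated at r = 0.985 to 0.993 across genes on the log2 scale. Scaling by library totals in place of the deposited size factors moved the median of all genes to 0.23 and that of the members to -1.15; changes below are relative to the deposited scaling. Of 12 myelomonocytic markers, 11 reached 100 reads in a library, while the monocyte gene CD14 held 0 to 10 reads in each. Their summed level was 73262 to 91983 normalized counts in the DMSO libraries and 47205 to 59262 with 22d. That difference lay in LYZ, which averaged 44816 with DMSO and 16624 with 22d; the other 11 summed to 33716 to 40153 and 35799 to 38699. Of the 12, 6 had a higher mean with 22d, among them PTPRC (712 against 2231) and CSF1R (1651 against 2846), and 6 a lower one. Of 19 markers of other cells, CD3D, MS4A1 and COL1A2 had 0 reads throughout, while KRT18 and PECAM1 reached 100 reads. The sum of these 19 was 523 to 674 with DMSO and 759 to 846 with 22d; their part in the members' change was not tested.

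S phase and mitosis genes moved with the members. Of 25 such genes, among them MCM2 to MCM7, E2F1, CCNA2 and MKI67, 25 fell and 0 rose, with a median log2 fold change of -2.24 and a range from -3.11 to -0.81. In bulk RNA, fewer cells in S and G2 phase and less RNA of these genes per cell cannot be told apart.

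**Figure D2:**
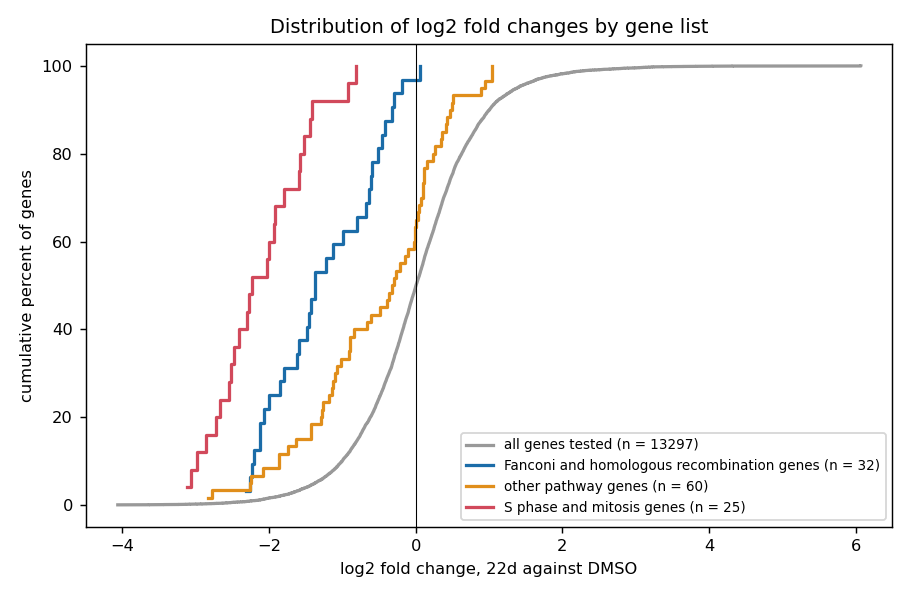
Cumulative percent of genes (vertical axis) by log2 fold change, 22d against DMSO (horizontal axis), for all 13297 genes tested, the 32 Fanconi and homologous recombination genes, 60 other genes of the same pathways and 25 S phase and mitosis genes. The curve of the 32 genes lies between that of the S phase and mitosis genes, median -2.24, and that of the other pathway genes, median -0.31.

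Within the Fanconi core complex, counted here with its conjugating enzyme UBE2T, 7 of 9 genes fell and 2 did not pass. Their changes ran from -2.23 to -0.19. FANCA, a scaffold subunit of the complex (GRCh38 chromosome 16, 89737549 to 89816657, from GENCODE release 29, as for all genes below), held 2738, 2538 and 2225 normalized counts in DMSO libraries 1 to 3 and 489, 595 and 515 in 22d libraries 1 to 3. The libraries with 22d held 21.3% of the DMSO mean and the groups stood far apart (log2 fold change -2.23, SE 0.12, limma adjusted p = 4.6e-08). FANCG, which binds FANCA, held 1628, 1535 and 1265 with DMSO and 385, 476 and 416 with 22d (log2 fold change -1.79, SE 0.13, limma adjusted p = 2.9e-07). FANCC, which sits in the complex beside FANCE and FANCF, held 655, 537 and 488 with DMSO and 132, 150 and 135 with 22d (-1.99, SE 0.15, limma adjusted p = 3.4e-07). The 3 genes thus kept between 21.3% and 28.8% of their DMSO mean, with no overlap between groups.

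FANCB, an X-linked gene whose product works with FANCL and FAAP100 in the catalytic module (chromosome X, 14835961 to 14873069), measured 94.5, 70.3 and 117 normalized counts in the DMSO libraries and 11.7, 28.3 and 25.2 in those given 22d. It was the least abundant of the steeply falling members, at 12 reads in 22d library 1, and its change of -2.12 had the widest error of the 32 (SE 0.33, limma adjusted p = 0.00012). UBE2T, the ubiquitin-conjugating enzyme of the pathway (chromosome 1, 202331657 to 202341980), held 764, 562 and 591 with DMSO and 174, 214 and 144 with 22d (-1.85, SE 0.17, limma adjusted p = 1.8e-06). FANCL, the ubiquitin ligase it serves, fell by 0.63 (log2; SE 0.17, limma adjusted p = 0.0055). FANCE, which contacts FANCD2, fell by 0.60 (SE 0.15, limma adjusted p = 0.0048). Its libraries with 22d were uneven, at 666, 456 and 481 normalized counts, and the highest of them lay just under the lowest DMSO library at 699.

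FANCF and FANCM did not pass. FANCF, an adaptor subunit encoded by a gene with a single exon in the annotation (chromosome 11, 22622890 to 22625841), measured 291, 278 and 308 normalized counts in the DMSO libraries and 267, 244 and 260 in those given 22d. All libraries with 22d lay under all DMSO libraries, but by little (log2 fold change -0.19, 95% confidence interval -0.48 to 0.10, limma adjusted p = 0.25). FANCM, a DNA translocase that anchors the complex on chromatin, held 125, 110 and 135 with DMSO and 92.9, 122 and 87.3 with 22d, where the groups overlapped (-0.30, 95% confidence interval -0.71 to 0.12, limma adjusted p = 0.20). Scaled by library totals, FANCF had a log2 fold change of 0.03.

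FANCD2 and FANCI, the pair that receives ubiquitin from the core complex, both fell. FANCI (chromosome 15, 89243949 to 89317261) averaged 1261 ± 98.7 normalized counts with DMSO and 454 ± 55.8 with 22d, and FANCD2 (chromosome 3, 10026414 to 10101930) averaged 770 ± 88.8 and 354 ± 46.7 (SD, n = 3 each). The log2 fold changes were -1.48 for FANCI and -1.12 for FANCD2 (SE 0.13 and 0.14, limma adjusted p = 9.3e-07 and 2e-05).

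The strand invasion genes fell in 7 of 7 cases, with a median of -1.42, and held 3 of the 7 steepest falls. RAD54L, a motor protein that remodels chromatin and helps strands pair (chromosome 1, 46247688 to 46278473), measured 1082, 880 and 868 normalized counts in the DMSO libraries and 184, 181 and 200 in those given 22d. That is 19.9% of the DMSO mean, the lowest share among the 32 (log2 fold change -2.31, SE 0.13, limma adjusted p = 6.4e-08). Its relative RAD54B held 247, 182 and 228 with DMSO and 44.97, 65.7 and 45.3 with 22d (-2.06, SE 0.21, limma adjusted p = 3.6e-06). XRCC2, which helps strand pairing (chromosome 7, 152644779 to 152676165), held 406, 376 and 411 with DMSO and 75.3, 99.5 and 73.9 with 22d (-2.26, SE 0.16, limma adjusted p = 2.8e-07). In each of these 3 genes the highest library with 22d was well under the lowest DMSO library. Relatives of XRCC2 also fell: XRCC3 by 1.42 (SE 0.11), RAD51D by 1.37 (SE 0.15) and RAD51C by 0.61 (SE 0.15) in log2 units, with limma adjusted p of 3.3e-07, 5.9e-06 and 0.0032. RAD51AP1, which stimulates the formation of joint molecules, fell by 1.22 (SE 0.14, limma adjusted p = 8.1e-06). Its libraries were even, at 412 ± 28.2 (DMSO) against 176 ± 5.78 (22d; SD, n = 3 each).

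Sequence upstream of the start was available from RefSeq for 28 of the 32 genes (GRCh38.p14; 250 bases before to 50 after the annotated start of the gene, which need not be the start used in these cells). It was searched on both strands for the E2F words TTTCCCGC, TTTGGCGC, TTCCCGCC and TTGGCGCC, which overlap one another; E2F factors are known to act on S phase genes through such sites. Of the 28 windows, 10 held a word (35.7%), against 5.3% of 35116 windows of the same length and 10.6% of the 9708 tested genes with a window. TONSL, RMI2, RAD54B and FANCI had no window and enter none of these counts (log2 fold changes -2.20, -2.13, -2.06 and -1.48). The windows of the 3 genes with the steepest falls and of the 2 genes with the smallest changes, chosen after their values were seen, are shown up to 30 bases from the start on, with the words in capitals.
RAD54L, chr1:46247438-46247717, plus strand: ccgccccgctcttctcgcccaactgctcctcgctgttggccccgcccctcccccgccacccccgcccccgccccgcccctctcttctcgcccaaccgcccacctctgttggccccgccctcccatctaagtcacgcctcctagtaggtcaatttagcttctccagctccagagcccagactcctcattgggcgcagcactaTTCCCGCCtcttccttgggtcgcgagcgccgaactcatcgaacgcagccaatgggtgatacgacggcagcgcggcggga
XRCC2, chr7:152676112-152676391, minus strand: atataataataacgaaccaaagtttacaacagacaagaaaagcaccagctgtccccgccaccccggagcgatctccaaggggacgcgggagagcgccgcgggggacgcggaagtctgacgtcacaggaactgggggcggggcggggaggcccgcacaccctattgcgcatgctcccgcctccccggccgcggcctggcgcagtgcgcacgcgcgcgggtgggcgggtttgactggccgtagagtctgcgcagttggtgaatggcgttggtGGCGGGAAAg
FANCA, chr16:89816618-89816897, minus strand: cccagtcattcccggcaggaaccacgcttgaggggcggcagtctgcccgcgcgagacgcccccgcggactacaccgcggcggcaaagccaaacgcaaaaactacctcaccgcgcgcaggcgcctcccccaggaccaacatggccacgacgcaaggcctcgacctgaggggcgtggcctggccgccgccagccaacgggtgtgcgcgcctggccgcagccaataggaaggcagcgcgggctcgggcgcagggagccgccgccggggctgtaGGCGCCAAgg
MUS81, chr11:65860183-65860462, plus strand: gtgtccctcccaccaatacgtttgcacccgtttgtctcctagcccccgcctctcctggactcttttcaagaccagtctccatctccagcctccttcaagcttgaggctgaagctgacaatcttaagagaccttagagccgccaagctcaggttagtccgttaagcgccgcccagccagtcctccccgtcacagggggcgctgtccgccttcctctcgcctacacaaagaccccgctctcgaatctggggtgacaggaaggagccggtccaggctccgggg
FANCF, chr11:22625794-22626073, minus strand: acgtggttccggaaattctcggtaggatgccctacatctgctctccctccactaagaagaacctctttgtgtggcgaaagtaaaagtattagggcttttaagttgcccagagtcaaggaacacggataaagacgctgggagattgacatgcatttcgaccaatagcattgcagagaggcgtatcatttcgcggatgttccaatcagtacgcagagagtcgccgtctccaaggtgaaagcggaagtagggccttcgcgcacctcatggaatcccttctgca
In RAD54L the word began 49 bases before the start, and in XRCC2 and FANCA 20 bases after it, while the windows of MUS81 and FANCF held none. The 10 members with a word (RAD54L, XRCC2, FANCA, FANCC, BRIP1, BLM, XRCC3, RAD51AP1, FANCD2 and FANCL) had a median log2 fold change of -1.52, and the 18 without one a median of -0.65, with a range from -2.12 to 0.06. Over all tested genes with a window the medians were -0.22 with a word and 0.01 without. FANCB, UBE2T, FANCG and BRCA1 fell by more than 1.5 on the log2 scale with no word in this window. Other possible starts of these genes were not searched. CHR words (TTTGAA and TTCGAA), a cell cycle element, stood in 3 of the 28 windows (10.7%, against 16.4% of all windows) and CCAAT in 12 (42.9%, against 34.6%).

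BRCA genes and their partners ranged from a steep fall to no call: 6 of 8 fell and 2 did not pass. TONSL, which binds newly replicated chromatin and helps repair at stalled forks, measured 5100, 4758 and 3966 normalized counts in the DMSO libraries and 817, 1138 and 1069 in those given 22d. Its 22d libraries held 21.9% of the DMSO mean (log2 fold change -2.20, SE 0.14, limma adjusted p = 9.7e-08), and with DMSO it had the highest level of the 32 per exonic length, at 648 normalized counts per kb. BRCA1, a ubiquitin ligase that promotes resection (chromosome 17, 43044295 to 43170245), held 1111, 794 and 1118 with DMSO and 308, 406 and 273 with 22d (-1.61, SE 0.17, limma adjusted p = 5.5e-06). BRIP1, a helicase that binds BRCA1, held 397, 292 and 484 with DMSO and 112, 156 and 116 with 22d (-1.59, SE 0.20, limma adjusted p = 2.1e-05). Both were lowest in DMSO library 2 among the DMSO libraries and highest in 22d library 2 among those with 22d, and their groups did not overlap.

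BARD1, the obligate partner of BRCA1, averaged 483 ± 64.4 normalized counts with DMSO and 241 ± 25.6 with 22d, and TOPBP1, an activator of the kinase ATR, 1352 ± 151 and 843 ± 81.2 (SD, n = 3 each). The log2 fold changes were -0.995 and -0.68 (SE 0.15 and 0.12, limma adjusted p = 8.2e-05 and 0.0004). BRCA2, which acts on resected single strands (chromosome 13, 32315474 to 32400266), held 288, 168 and 295 with DMSO and 150, 148 and 123 with 22d (-0.79, SE 0.21, limma adjusted p = 0.0059). With 1 DMSO library left out, the BRCA2 change was -0.67 (without library 1, limma adjusted p = 0.031), -1.06 (without library 2, the low one) and -0.65 (without library 3, limma adjusted p = 0.032). PALB2, which bridges BRCA1 and BRCA2, held 338, 266 and 344 with DMSO and 263, 266 and 226 with 22d (-0.32, 95% confidence interval -0.65 to 0.01, limma adjusted p = 0.085). RBBP8, which encodes the resection factor CtIP, held 346, 195 and 346 with DMSO and 171, 231 and 204 with 22d (-0.51, SE 0.21, limma adjusted p = 0.055). In RBBP8, DMSO library 2 lay under 22d libraries 2 and 3, and in PALB2 it lay just under 22d library 2; in both genes DMSO libraries 1 and 3 lay above all libraries with 22d. Without that library RBBP8 was lower at -0.78 (limma adjusted p = 0.0027) and PALB2 at -0.44 (limma adjusted p = 0.032). Without DMSO library 1 or 3 neither passed: RBBP8 was at -0.37 in both cases (limma adjusted p = 0.20 in both), and PALB2 at -0.27 and -0.25 (limma adjusted p = 0.23 and 0.22). With scaling by library totals, RBBP8 was at -0.29 (adjusted p = 0.29) and PALB2 at -0.10 (adjusted p = 0.62). RBBP8 was also lower in the authors' deposited table, with a log2 fold change of -0.53 and an adjusted p of 0.031.

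Of the dissolution genes, 3 of 3 fell. RMI2 (chromosome 16, 11249619 to 11381662), a small subunit that stabilises the BLM complex, measured 1216, 1003 and 1064 normalized counts in the DMSO libraries and 234, 289 and 229 in those given 22d (log2 fold change -2.13, SE 0.14, limma adjusted p = 1.1e-07). The helicase gene BLM went from 761 ± 129 to 279 ± 62.3 (SD, n = 3 each; -1.45, SE 0.17, limma adjusted p = 1.5e-05). RMI1, which joins BLM to topoisomerase, went only from 416 ± 37.6 to 301 ± 25.3 (SD, n = 3 each; -0.46, SE 0.14, limma adjusted p = 0.0099). Its call was lost with scaling by library totals (-0.24, adjusted p = 0.18).

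Among the nuclease genes, EME1 fell, SLX4 fell slightly and MUS81 did not pass. EME1, the regulatory subunit of the MUS81 nuclease, averaged 334 ± 16.6 normalized counts with DMSO against 129 ± 10.4 (SD, n = 3 each; log2 fold change -1.37, SE 0.15, limma adjusted p = 5.7e-06). MUS81, the catalytic subunit (chromosome 11, 65857126 to 65867653), held 1665, 1708 and 1390 with DMSO and 1721, 1558 and 1657 with 22d. Its groups overlapped, and the log2 fold change was 0.06 (95% confidence interval -0.19 to 0.30, limma adjusted p = 0.69). Without DMSO library 3, the lowest of the 6, it was -0.04, and with scaling by library totals MUS81 passed as higher (0.28, adjusted p = 0.037). SLX4, the scaffold that recruits MUS81 and other nucleases, went from 2084 ± 172 to 1571 ± 244 (SD, n = 3 each; -0.42, SE 0.13, limma adjusted p = 0.013). The SLX4 call was lost without DMSO library 2 (-0.35, adjusted p = 0.054), with quantile normalization (-0.21, adjusted p = 0.19) and with scaling by library totals (-0.20, adjusted p = 0.18).

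**Figure D3:**
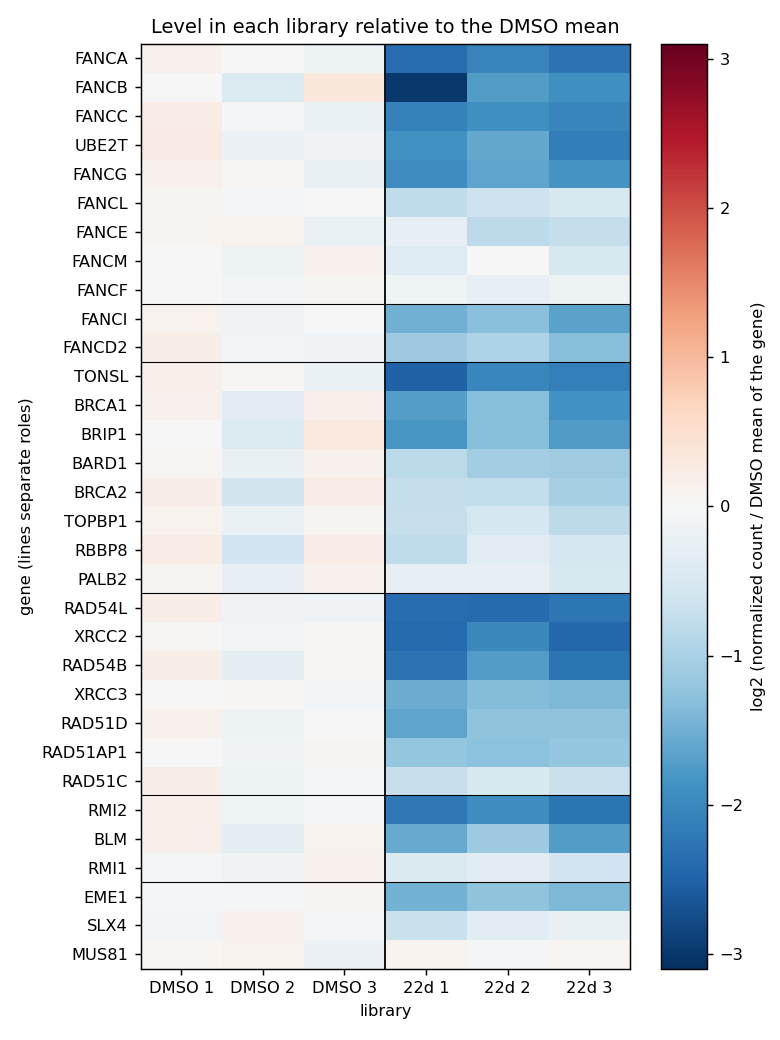
Level of each of the 32 genes (rows, ordered by role) in each library (columns) as log2 of the normalized count over the gene's DMSO mean; blue is lower and red higher. The 3 libraries with 22d are blue for most genes, FANCB reaches its lowest in 22d library 1, and DMSO library 2 is below DMSO libraries 1 and 3 for BRCA2, RBBP8, BRIP1 and BRCA1.

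Because several of these proteins work in fixed complexes, the ratio of partner genes was taken within each library, per kb of exonic length in GENCODE release 29, for 7 pairs chosen after the changes were seen. A ratio within a library does not depend on how libraries are scaled. The ratio of EME1 to MUS81 was 0.322, 0.319 and 0.423 in DMSO libraries 1 to 3 and 0.116, 0.15 and 0.127 in 22d libraries 1 to 3. The ratio of RMI2 to RMI1 was 2.92, 2.504 and 2.24 with DMSO and 0.742, 0.860 and 0.806 with 22d. With these exonic lengths it was above 1 in each DMSO library and below 1 in each library with 22d. Whether a ratio lies above or below 1 depends on the lengths used, but its shift between groups does not. The longest coding transcripts of RMI2 and RMI1 have 1865 and 3420 bases, against exonic lengths of 3632 and 3507. BRCA1 to BARD1 went from 1.37 ± 0.0863 to 0.908 ± 0.229 and XRCC2 to RAD51D from 1.41 ± 0.0983 to 0.758 ± 0.117 (SD, n = 3 each). XRCC3 to RAD51C went from 6.28 ± 0.891 to 3.58 ± 0.233, and BRCA2 to PALB2 from 0.302 ± 0.050 to 0.215 ± 0.00504 (SD, n = 3 each). The smallest shift was that of FANCI to FANCD2, from 1.77 ± 0.113 to 1.39 ± 0.0303 (SD, n = 3 each).

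In each of the 7 pairs the ratios with 22d lay under all ratios with DMSO. The share of other gene pairs with such a gap was not computed, so this count says nothing particular about these partners. The first gene of each pair is the one that fell more, so the direction follows from how the pairs were written. The log2 shift ran from -1.66 for RMI2 to RMI1 to -0.35 for FANCI to FANCD2. With 3 against 3 libraries, the exact two-sided permutation test cannot go below 0.1, and it gave 0.1 for each pair (0.1 after Benjamini-Hochberg adjustment over the 7 pairs).

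**Figure D4:**
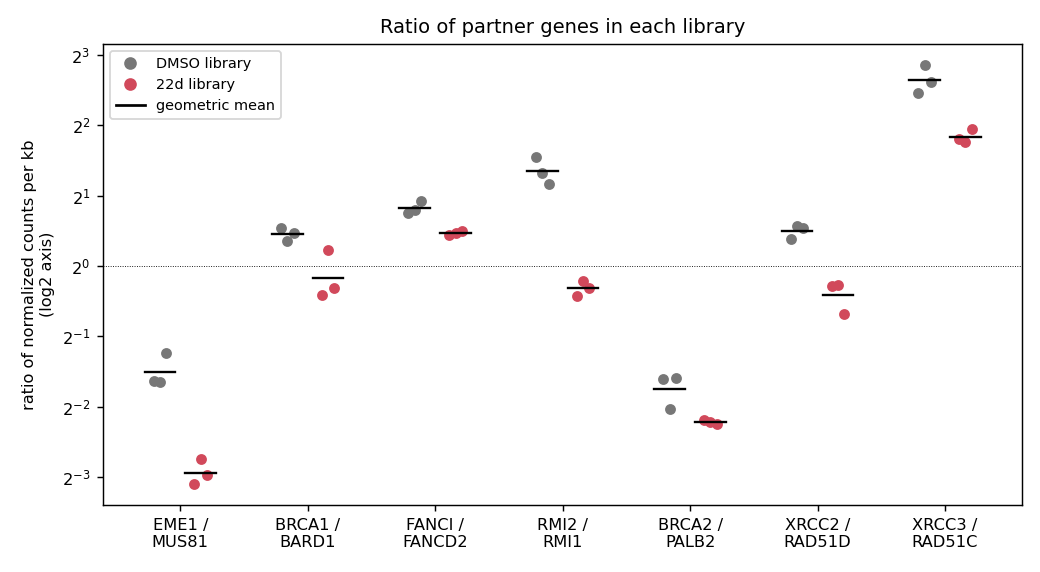
Ratio of normalized counts per kb between 2 partner genes (log2 vertical axis) in each DMSO library (grey) and each library with 22d (red) for 7 pairs; bars are geometric means and the dotted line marks equal levels. With the exonic lengths used, RMI2 to RMI1 crosses the line, from 2.24 or more with DMSO to 0.860 or less with 22d. Where a ratio lies relative to the line depends on these lengths.

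Among 63 other genes of the 2 pathways, 60 passed the filter. Of these, 30 fell, 9 rose and 21 did not pass the test, with a median log2 fold change of -0.31. By the same rule, 29.6% of all genes tested fell and 28.5% rose. DMC1, SLX1A and SLX1B lay under the filter. Steep falls included UHRF1 (-2.83), which recognises newly replicated DNA and linked strands, the resection nuclease gene EXO1 (-2.26), the helicase gene RECQL4 (-2.25) and STRA13 (-2.09), the table's name for CENPX, a partner of FANCM. The largest rises among those averaging 100 or more normalized counts were REV3L (1.05), the catalytic subunit of a translesion polymerase, RAD50 (0.94), a subunit of the break sensor complex, FAM175A (0.89), the scaffold of the BRCA1-A complex, WDR48 (0.51), an activator of the FANCD2 deubiquitinase USP1, and HELQ (0.49), a helicase. RAD50 held 453, 270 and 558 with DMSO and 789, 846 and 724 with 22d. Without DMSO library 2 the genes that rose numbered 5 rather than 9, and HELQ did not pass (0.33, adjusted p = 0.087).

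In each group, library 2 stood apart in these genes. Among the libraries with 22d, library 2 was the highest in 23 of the 32 members (71.9%), against 32.2% of all genes tested. DMSO library 2 was the lowest of the 3 DMSO libraries in 21 of the 32 members, against 34.8% of all genes tested, and 21 of the 22 members whose longest coding transcript has a GC content under 50% were lowest there. Of the 10 members with 50% or more, it was the highest DMSO library in 4, and lowest in 0. Across the 32 members, the log2 difference between DMSO library 2 and the mean of libraries 1 and 3 correlated with transcript GC content at Pearson's r = 0.76, and across 11699 tested genes at r = 0.46; genes of 1 library share its preparation and are not independent. The log2 fold change with 22d correlated with GC content at r = -0.15 across the members and -0.14 across the 11699 genes; the part of GC content in the members' change was not tested. The members that were lower numbered 28 without DMSO library 2, 28 without 22d library 2 and 27 with each of the other 4 libraries left out in turn.

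**Figure D5:**
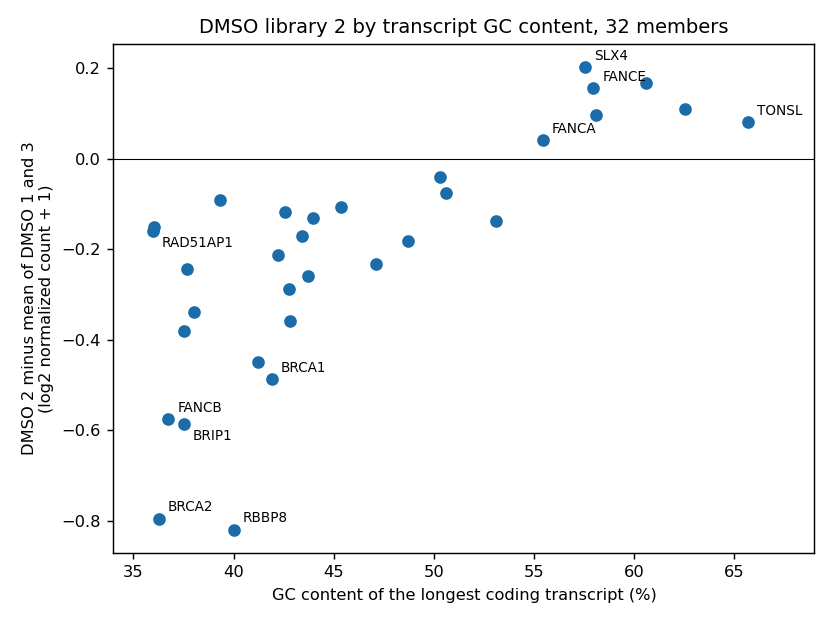
Log2 difference between DMSO library 2 and the mean of DMSO libraries 1 and 3 (vertical axis) against the GC content of the longest coding transcript in GENCODE release 29 (horizontal axis), with a point for each of the 32 genes. RBBP8 and BRCA2 lie lowest, at -0.82 and -0.80, and the genes above 0, among them SLX4 at 0.20, have a GC content of 55% or more.

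Some members share exonic bases with a neighbour on the opposite strand, and reads of the 2 strands cannot be told apart without a stated strand setting. XRCC3 shared 76.7% of its exonic bases with KLC1 (log2 fold change -0.16), RAD54L 25.1% with LRRC41 (0.05), FANCA 23.6% with ZNF276 (-0.34) and FANCL 18.7% with VRK2 (0.07), none of which passed the test. EME1 shared 16.4% with LRRC59, which fell by 1.58 on the log2 scale. FANCI shared 5.9% with POLG, which was also lower (log2 fold change -0.41, limma adjusted p = 0.0072). MUS81 shared 13.9% with CFL1, which fell by 1.15 from 38947 to 17644 normalized counts. RAD54B shared 59.1% with FSBP on its own strand, which had 0 counts.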

How the data were processed

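The authors deposited one table with a normalized signal per library, the mean signal, and a log2 fold change with its standard error, a test score, a p-value and an adjusted p-value. STAR alignment to hg38, HTSeq counting, DESeq2, cutadapt and FastQC are named per the submitters' processing notes; tool versions, the annotation and the strand setting are not given in the sources used here. The deposited signal is a read count over 1 size factor per library: 100% of values gave whole reads within 0.001 of a read. Each of the 6 table columns was matched to a library through its arm and number, and 0 columns of per-sample values were left unassigned.

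Genes averaging 10 or more normalized counts were tested together by limma-trend, using log2(value + 1) and no replicate block. On this scale the added 1 understates changes of low genes. The members and lists were chosen with earlier results of these data known. The rule named all 32 members, with each library's value for called members changed by at least 1.5 on the log2 scale and for members not called, and up to 5 other pathway genes per direction; some items are not reported here. Alternatives were edgeR with TMM and DESeq2 on the recovered whole reads, the authors' table, pseudocounts 0.5 and 8, no filter or a minimum of 50, library totals, quantile normalization, a replicate block and leaving out each library. The fit was tested on simulated data. Positions, lengths and GC content are from GENCODE release 29 (GRCh38), which may differ from the authors' annotation. R 4.3.3, limma 3.58.1, edgeR 4.0.16, DESeq2 1.42.0, Python 3.11.15 and matplotlib 3.10.9 were used.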

Additional observations from a re-analysis of the deposited data

How the results depend on the processing

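The number of members lower with 22d lay between 24 and 29 of 32 over all alternatives, and 24 members kept both direction and call in each of them. Scaling by library totals gave 1 member higher in place of 0 (MUS81) and 15 other pathway genes higher in place of 9, and turned FANCF to 0.034. With 1 library left out, the other pathway genes higher numbered 5 to 10, the fewest without DMSO library 2, and the MUS81 change ran from -0.037 to 0.11. Calls of FANCL, RMI1, SLX4, RBBP8, PALB2, FANCM and MUS81 changed in at least 1 alternative; FANCL was lost with library totals (-0.41, adjusted p = 0.062), and FANCM passed with quantile normalization (-0.51, adjusted p = 0.032). The cause was not tested. With the replicate block, 28 members were lower (RBBP8 passed as well) and 28 of the other pathway genes in place of 30. Same-numbered libraries did not deviate together (r = -0.03, -0.02 and -0.10 for numbers 1 to 3). Libraries of different number gave r = -0.11 to 0.17. With so few libraries this cannot show whether same-numbered libraries share a culture or batch. The partner ratios kept their direction with a pseudocount of 1. Leaving out 1 library could not reverse them, because the ratios of the groups did not overlap in any of the 7 pairs. FANCB, with 12 reads in 1 library, is the member whose size is least certain.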
